A study of Homo sapiens with 115 samples.

Results

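The unfolded protein and integrated stress response was followed through 34 genes in single HCT116 cells, from before irradiation to repopulation. The members were taken by gene symbol, and all 34 were found among the 43386 entries of the count table. They comprise 15 endoplasmic reticulum (ER) chaperones and folding enzymes, 4 genes of ER-associated degradation, 6 sensors and transcription factors, and 9 genes that the transcription factor ATF4 is known to induce. All 34 passed the filter on low counts, which left 19894 genes for testing.

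Unfolded protein in the ER lumen is sensed by IRE1, PERK and ATF6, 3 membrane proteins that the chaperone BiP holds inactive. IRE1 splices the mRNA of XBP1, and the spliced XBP1 and the cleaved ATF6 raise chaperones and degradation factors. PERK, like other kinases of the integrated stress response, phosphorylates the initiation factor eIF2 alpha, which slows translation in general but favours that of ATF4, so that the amount of ATF4 protein is set largely by translation and the amount of XBP1 protein by splicing. Gene counts see neither step.

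HCT116 is a human colorectal cancer cell line. Its p53-/- and p53+/+ forms were homologous-recombinant lines, each named as 1 clone, so that a difference between the lines cannot be told apart from a difference between clones. Cells were picked under a microscope at 5 stages: unirradiated cells [N] on day 0, radiation-tolerant persister (RTP) cells before budding [P] on day 7, budding RTP cells [B] on day 10, their newly budded progenies [S] on day 10, and repopulated cells [R] on day 30. The p53-/- line gave 7 [N], 11 [P], 8 [B], 9 [S] and 8 [R] cells, and the p53+/+ line 6 [N], 6 [P], 28 [B], 21 [S] and 11 [R] cells. These days are those of the labels, and a figure legend of the study places [B] and [S] on day 9. The labels give 8 Gy for every cell, [N] included. In the methods the [N] cells are untreated.

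Total counts ran from 4056329 to 100173192 per cell (median 34238237), and 5911 to 19258 genes were detected. CDKN1A, the p53 target that encodes p21, was at 312 CPM (counts scaled to a common total) in the summed p53-/- [P] cells and 2612 CPM in the summed p53+/+ [P] cells. Epithelial markers summed to at least 1573 CPM in every cell, and 5 fibroblast and 5 leukocyte markers to at most 62.3 and 119.9 CPM. Cell names begin with 1 of 19 digit prefixes, whose meaning the labels do not give. [N] shares a prefix with [P] alone and [R] shares none, so stage and prefix cannot be told apart in the other comparisons with [N] or with [R]. In [R] all cells of a line have 1 prefix, a different one in each line, so that line and prefix cannot be told apart there.

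ER stress genes and ATF4 targets are known to answer to different elements near their start sites. Promoter windows (250 bases before to 50 bases after each annotated start, RefSeq, GRCh38.p14) were on hand for 32 members, the exceptions being PDIA3 and SLC7A11. They were searched on both strands for the ER stress response element ERSE (CCAAT, then 9 bases of any kind, then CCACG), for ERSE-II (ATTGG, 1 base of any kind, CCACG), and for the element that ATF4 pairs with C/EBP proteins to bind, CARE (TGATG, 1 base of any kind, AAT). ERSE was found in 6 of 14 chaperone genes with a window and in 1 of 6 sensors and transcription factors, against 25 of all 27305 genes (0.0916%) and 27 of all 35116 windows (0.0769%). ERSE-II was found in 2 of the 14 chaperone genes and in 1 of 4 genes of ER-associated degradation, against 19 of all windows (0.0541%). Neither was found in the 8 ATF4 targets with a window. CARE in the form above was found in no member's window, against 348 of all windows (0.991%). Other forms of CARE were not searched. The sequences that carry an element follow with 8 bases on either side, 5′ to 3′ on the strand of the gene, because they are what several chaperone genes share and no ATF4 target with a window holds. Capitals mark the element, which is read on the opposite strand in CALR, CRELD2, HYOU1, SDF2L1 and the second sequence of HSP90B1. No 2 of the elements overlap.
HSPA5, ERSE, chr9:125241383-125241417, minus strand: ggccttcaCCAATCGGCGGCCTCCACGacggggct
HSP90B1, ERSE, chr12:103930208-103930242, plus strand: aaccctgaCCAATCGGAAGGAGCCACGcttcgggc
HSP90B1, ERSE, chr12:103930313-103930347, plus strand: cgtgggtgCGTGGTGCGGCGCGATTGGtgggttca
CALR, ERSE, chr19:12938376-12938410, plus strand: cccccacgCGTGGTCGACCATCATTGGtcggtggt
CANX, ERSE, chr5:179698770-179698804, plus strand: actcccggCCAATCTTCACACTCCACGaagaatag
PDIA6, ERSE, chr2:10812845-10812879, minus strand: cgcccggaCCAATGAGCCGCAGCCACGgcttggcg
CRELD2, ERSE, chr22:49918546-49918580, plus strand: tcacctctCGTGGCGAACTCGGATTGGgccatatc
XBP1, ERSE, chr22:28800595-28800629, minus strand: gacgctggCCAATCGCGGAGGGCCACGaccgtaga
HERPUD1, ERSE-II, chr16:56932017-56932043, plus strand: ggacgccgATTGGGCCACGttgggaga
SDF2L1, ERSE-II, chr22:21642106-21642132, plus strand: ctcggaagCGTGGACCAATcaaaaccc
HYOU1, ERSE-II, chr11:119057266-119057292, minus strand: gcctgggaCGTGGTCCAATgagtacgc
HYOU1, ERSE-II, chr11:119057372-119057398, minus strand: ccccgtgaCGTGGTCCAATcccaggcc
A match is a run of letters and not a measured site, no match says only that these letters are not in the window, and the counts hold no reading of the promoters.

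All cells of 1 stage and line were added up, so that a stage had 2 sums of counts, and edgeR compared these sums ([P] over [N] is the first stage set against the second). Between stages the fit held no term for the line, so that the difference between the lines is part of its spread. No member passed an adjusted p of 0.05 (Benjamini-Hochberg over the 19894 genes) in any of the 8 comparisons, so that every value below is a level or an estimate and not a call. Of all genes tested, the share called was 0.0201% for [P] over [N], 0.658% for [B] over [N], 0.0704% for [S] over [N], 0.0% for [R] over [N], 0.0% for [B] over [P], 0.0% for [S] over [B], 0.0201% for [R] over [S] and 0.206% for p53-/- over p53+/+. At an unadjusted p under 0.05, 25 of the 34 members appeared in at least 1 of the 8 comparisons. The share of all genes that did so was not counted, so that this number is not read as a result about the members. Lower members at that level numbered 6 of 34 for [P] over [N] (4.9% of all genes), 6 for [B] over [N] (9.16%), 3 for [S] over [N] (5.49%), 1 for [R] over [N] (4.13%), 0 for [B] over [P] (3.23%), 1 for [S] over [B] (1.54%), 4 for [R] over [S] (9.01%) and 0 for p53-/- over p53+/+ (7.0%). Higher members numbered 1 (7.01% of all genes), 2 (9.37%), 2 (7.84%), 0 (4.47%), 2 (1.95%), 2 (2.65%), 5 (6.11%) and 10 (6.91%) in the same order. Set against the background, the members' share was largest on the lower side of [P] over [N] and on the higher side of p53-/- versus p53+/+. DESeq2 on the same sums called more genes, 799, 2153, 960, 401, 128, 51 and 1393 in the 7 stage comparisons and 1635 between the lines, and of the members 4, 6, 1, 0, 0, 0, 2 and 7. With the line as a replicate block in edgeR, 677 genes were called in [B] over [N], 31 in [S] over [N], 6 in [B] over [P] and 76 in [R] over [S], and 1 member among them (PHGDH, described with its values). Cells of 1 line are not known to come from separate cultures, so that the p-values measure the spread between these sums. In RNA of single cells amplified without molecular identifiers, a value in CPM is a share of a cell's RNA, and fewer transcripts of a gene cannot be told apart from more of the other genes.

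**Figure D1:**
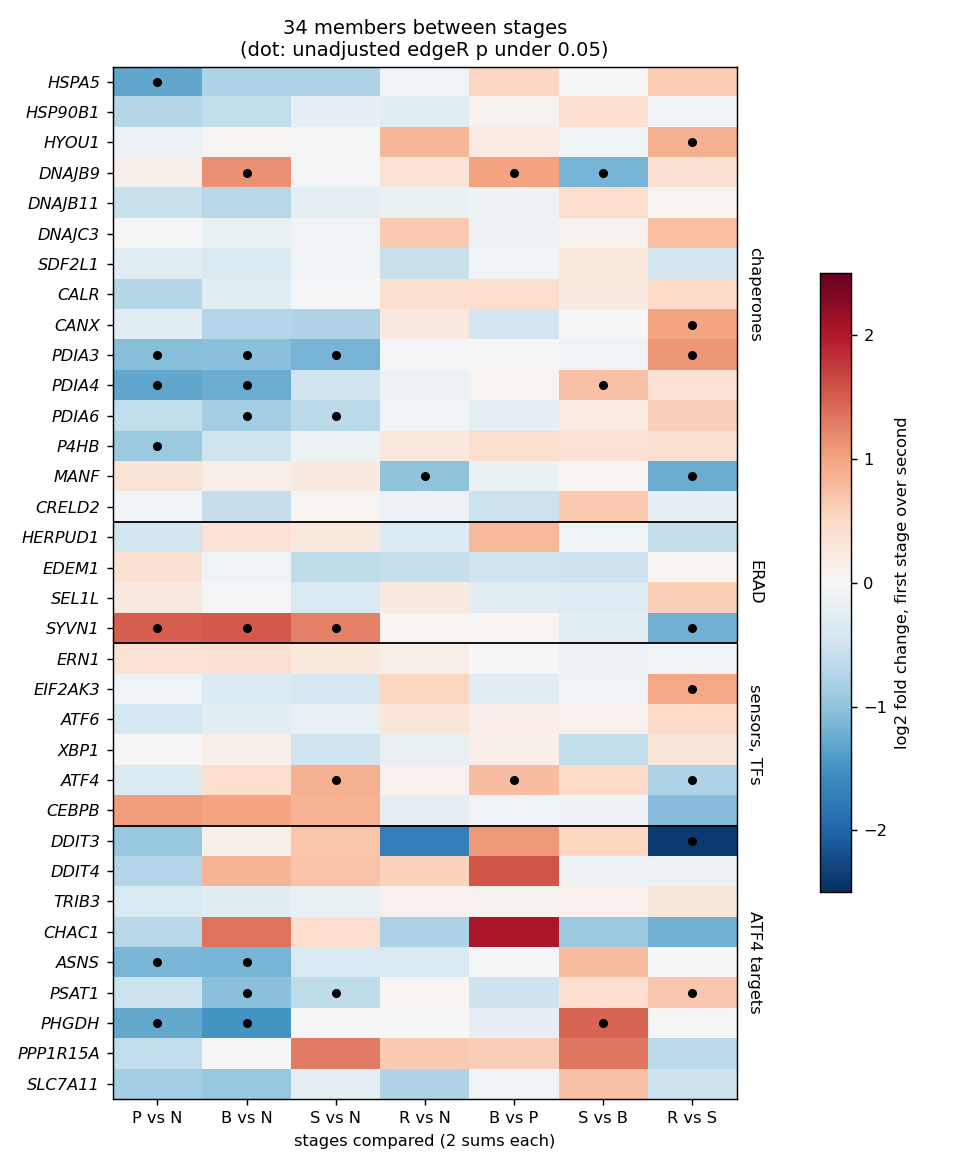
Log2 fold changes of the 34 members (rows, grouped by role) in the 7 stage comparisons (columns), first stage over second, from edgeR on 2 sums per stage. A dot marks an unadjusted p under 0.05, and no cell of the map passed an adjusted p of 0.05. HSPA5, PDIA3, PDIA4, ASNS and PHGDH are blue in both [P] and [B] over [N], and SYVN1 is red in both.

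The chaperones and folding enzymes had mostly lower estimates in RTP cells than in unirradiated cells in both lines, and none of them passed the adjusted test. The median over the group was -0.56 (log2) in [P] over [N], where 2 of 15 lay above 0, and -0.59 in [B] over [N], where 3 of 15 lay above 0, beside medians of 0.15 and 0.20 over all genes. In [P] over [N], 10 of the 15 were below 0 in both lines and none above 0 in both. Leaving out 1 sum at a time moved that median to between -0.77 (without p53-/- [P]) and -0.33 (without p53-/- [N]). The median was -0.12 in [S] over [N] and -0.07 in [R] over [N], and 0.38 in [R] over [S] (11 of 15 above 0), beside -0.08 over all genes. Per cell, the mean log2(CPM + 1) of the 15 genes had medians, for [N], [P], [B], [S] and [R] in turn, of 7.50, 7.20, 7.17, 7.22 and 7.63 in p53-/- cells. These medians were 7.24, 7.04, 6.92, 6.83 and 7.82 in p53+/+ cells. The SD of this level among cells, over the same stages, was 0.29, 0.54, 0.60, 0.74 and 0.24 for p53-/- cells, and 0.28, 0.37, 0.84, 1.18 and 0.45 for p53+/+ cells. Of the 6 cells with the lowest chaperone level, all p53+/+ [B] or [S] cells at 3.72 to 5.54, 5 shared 1 name prefix, and the part of that prefix in the spread was not tested. All 6 also lay below the p53+/+ median of their stage in the other role groups. A [B] cell among them had the lowest total and the fewest genes of all cells. Within that prefix the chaperone median of p53+/+ [S] over [B] was -1.76, beside -1.34 over genes with at least 20 counts.

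**Figure D2:**
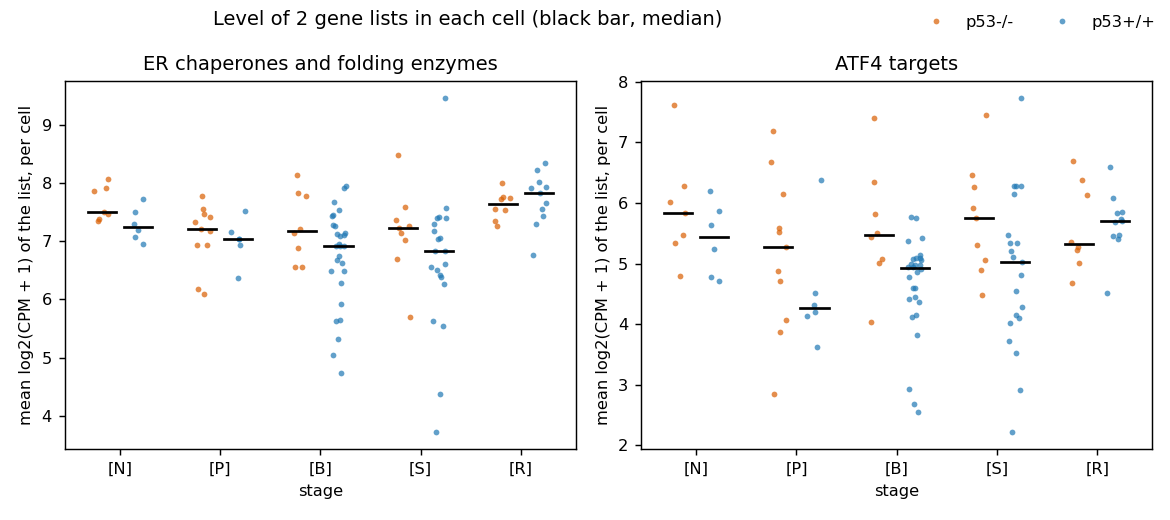
Mean log2(CPM + 1) of the 15 chaperones and folding enzymes (left) and of the 9 ATF4 targets (right), 1 point per cell, by stage, p53-/- left of p53+/+, with the median as a bar. The chaperone level lies between 6.95 and 8.07 in all [N] cells, whereas p53+/+ [S] cells run from 3.72 to 9.46.

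HSPA5 encodes BiP, the Hsp70 of the ER lumen and the switch of all 3 sensors. HSPA5 in p53-/- cells was at a median of 1205 CPM (879 to 2033) in [N], 653 (116.5 to 1361) in [P], 629.8 (260.4 to 2755) in [B], 679 (276 to 2374) in [S] and 944 (724 to 1610.4) in [R]. Median HSPA5 in p53+/+ cells was 799.9 CPM (712 to 1306) in [N], 502 (229 to 574) in [P], 374 (18.1 to 1742) in [B], 449 (37.3 to 6142) in [S] and 1534 (812 to 2044) in [R]. No p53+/+ [P] cell reached the lowest p53+/+ [N] cell in HSPA5, and how many other genes do the same was not counted. The p53-/- [P] and [N] cells overlapped in HSPA5. The fitted log2 fold change in [P] over [N] was -1.30 ± 0.36 (SE, unadjusted p = 0.00475, adjusted p = 0.29), with -1.15 for p53-/- and -1.51 for p53+/+ sums. The top [S] cell, at 6142 CPM, was a p53+/+ cell that also held the highest HSP90B1 (9296 CPM) and PDIA4 (2138 CPM) of all cells studied. It is 1 of the 4 cells left out in an alternative, and without them HSPA5 in [S] over [N] was at -0.92 in place of -0.75.

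PDIA4, a protein disulfide isomerase of the ER, gave the smallest p among the chaperones. PDIA4 in p53-/- cells was at a median of 336 CPM (258 to 687) in [N], 144 (41.5 to 380.3) in [P], 159 (77.4 to 429) in [B], 181 (89 to 712) in [S] and 315 (198 to 503) in [R]. Median PDIA4 in p53+/+ cells was 268 CPM (143 to 527) in [N], 184 (102.4 to 266) in [P], 168 (33.2 to 512) in [B], 158 (7.77 to 2138) in [S] and 475 (149 to 799) in [R]. Its median was thus below that of [N] at [P], [B] and [S] in both lines, with overlap of the single cells. The log2 fold change was -1.30 ± 0.31 (SE, unadjusted p = 0.00182, adjusted p = 0.284) in [P] over [N] and -1.23 ± 0.31 (SE, unadjusted p = 0.00258, adjusted p = 0.0896) in [B] over [N]. In [S] over [B] PDIA4 was at 0.73 ± 0.31 (SE, unadjusted p = 0.0385, adjusted p = 1.0).

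PDIA3 (ERp57), which oxidizes glycoproteins held by calnexin and calreticulin, had its smallest p in progenies. PDIA3 in p53-/- cells was at a median of 449 CPM (349 to 1031) in [N], 217 (53.7 to 636) in [P], 193 (91 to 686) in [B], 227 (128 to 446) in [S] and 449 (355 to 628) in [R]. Median PDIA3 in p53+/+ cells was 418 CPM (329 to 621) in [N], 316 (173 to 414) in [P], 226 (0 to 779) in [B], 251 (7.74 to 555) in [S] and 614 (427 to 1037) in [R]. All [R] cells lay at or above 355 CPM, and the median of [R] exceeded that of [S] in both lines. PDIA3 was at -1.15 ± 0.29 (SE, unadjusted p = 0.00265, adjusted p = 0.212) in [S] over [N] and at 1.10 ± 0.29 (SE, unadjusted p = 0.00356, adjusted p = 0.151) in [R] over [S]. Its estimates in [P] and [B] over [N] were -1.06 and -1.05.

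CALR, the lectin chaperone calreticulin, had no unadjusted p under 0.05 between stages, and its lowest p was between the lines. CALR in p53-/- cells was at a median of 172 CPM (142 to 298) in [N], 116.1 (33.8 to 360.2) in [P], 180.2 (68.2 to 399) in [B], 159.8 (48.8 to 432) in [S] and 223 (187 to 429) in [R]. Median CALR in p53+/+ cells was 116.1 CPM (44 to 234) in [N], 90 (44.7 to 143) in [P], 88.7 (27.3 to 770.1) in [B], 132 (17.8 to 620.1) in [S] and 209 (102.5 to 439) in [R]. DNAJC3 (p58IPK), a co-chaperone of BiP, was the same in this. DNAJC3 in p53-/- cells was at a median of 54.5 CPM (38.1 to 95.6) in [N], 76.9 (38.7 to 106.5) in [P], 52.5 (21.3 to 112.8) in [B], 55.7 (22.7 to 160.3) in [S] and 106.1 (66.5 to 200.1) in [R]. Median DNAJC3 in p53+/+ cells was 50.1 CPM (9.67 to 75.3) in [N], 46 (34.6 to 72) in [P], 36.9 (7.9 to 179.9) in [B], 36.6 (0 to 232) in [S] and 81.7 (31.3 to 171) in [R]. For both genes the p53-/- median was above the p53+/+ median at all 5 stages.

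The other 10 members of the group had the following estimates. PDIA6, a further disulfide isomerase, was at -0.87 ± 0.28 (SE, unadjusted p = 0.0114, adjusted p = 0.151) in [B] over [N], and P4HB, the founding disulfide isomerase, at -0.92 ± 0.30 (SE, unadjusted p = 0.0127, adjusted p = 0.331) in [P] over [N]. HSP90B1 (GRP94), the Hsp90 of the ER, was at -0.70 in [P] over [N] and CANX, the membrane lectin calnexin, at 0.98 ± 0.34 (SE, unadjusted p = 0.0164, adjusted p = 0.229) in [R] over [S]. HYOU1, the nucleotide exchange factor of BiP, was at 0.88 ± 0.39 (SE, unadjusted p = 0.0458, adjusted p = 0.32) in the same comparison. DNAJB9 (ERdj4), the co-chaperone that returns BiP to IRE1, went the other way in budding cells, at 1.14 ± 0.44 (SE, unadjusted p = 0.0271, adjusted p = 0.21) in [B] over [N] and at -1.17 ± 0.44 (SE, unadjusted p = 0.024, adjusted p = 1.0) in [S] over [B]. MANF, a secreted ER stress protein, was lower in repopulated cells, at -1.23 ± 0.43 (SE, unadjusted p = 0.0161, adjusted p = 0.228) in [R] over [S]. The co-chaperone DNAJB11 (ERdj3) lay between -0.69 and 0.45 over the 7 stage comparisons. SDF2L1, its partner in the lumen, lay between -0.56 and 0.26, and CRELD2, a cysteine-rich ER protein, between -0.59 and 0.65.

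**Figure D3:**
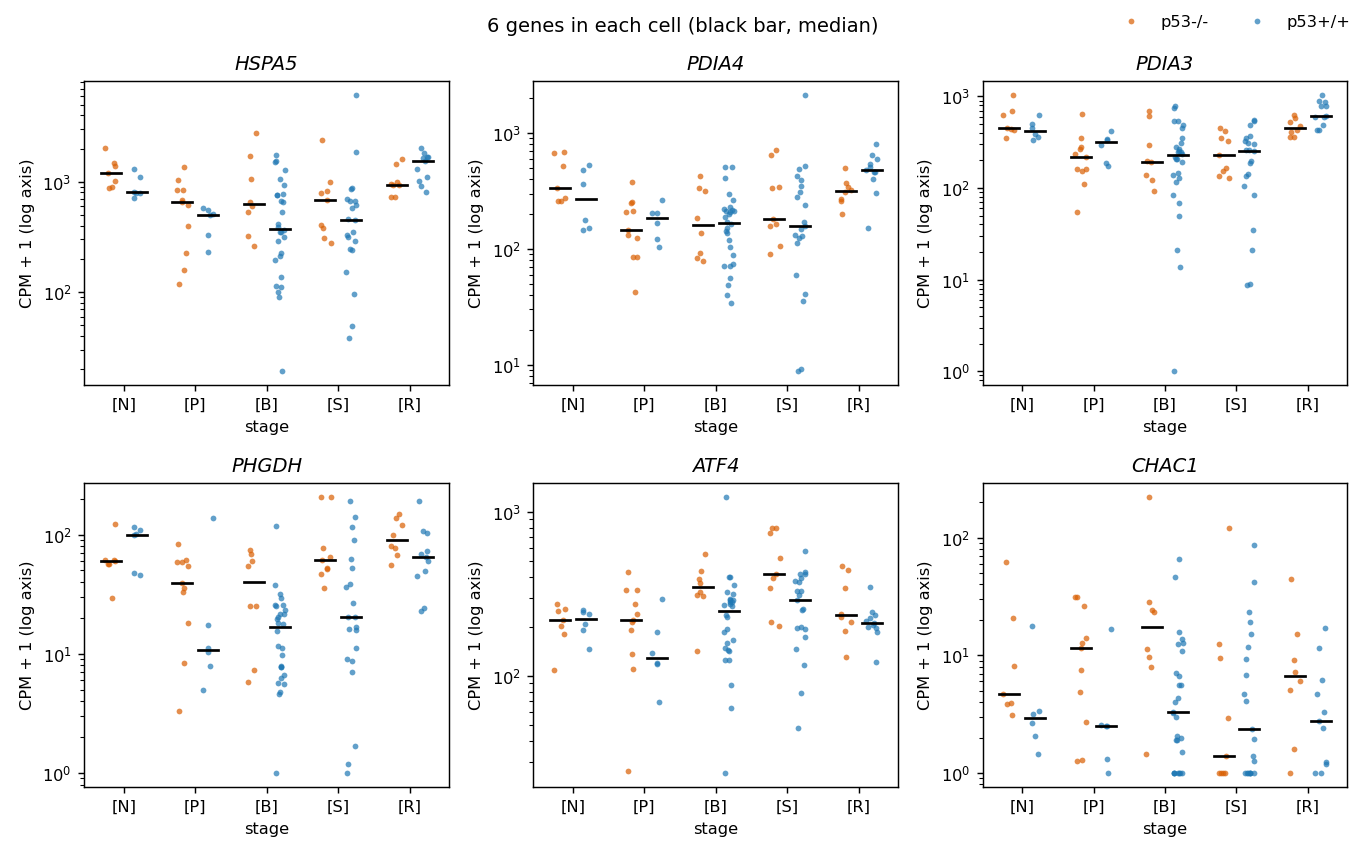
CPM + 1 on a log axis for HSPA5, PDIA4, PDIA3, PHGDH, ATF4 and CHAC1, 1 point per cell, by stage, p53-/- left of p53+/+, with the median as a bar. HSPA5 of p53+/+ [P] cells (229 to 574 CPM) lies below that of all p53+/+ [N] cells (712 to 1306 CPM), and most CHAC1 points are near the floor with single cells up to 222 CPM.

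The 4 genes of ER-associated degradation lay near the other genes in RTP cells. Their group median was 0.31 (log2) in [P] over [N] and 0.16 in [B] over [N], beside 0.15 and 0.20 over all genes. SYVN1 (HRD1), the ubiquitin ligase of the pathway, was the exception. SYVN1 in p53-/- cells was at a median of 4.48 CPM (2.86 to 5.26) in [N], 9.24 (0 to 45.1) in [P], 13.4 (5.59 to 26.5) in [B], 1.89 (0 to 47.2) in [S] and 1.63 (0.63 to 10.2) in [R]. Median SYVN1 in p53+/+ cells was 2.6 CPM (1.88 to 6.58) in [N], 5.87 (2.66 to 14.3) in [P], 8.02 (0 to 45.8) in [B], 6.36 (0 to 77) in [S] and 3.15 (0.13 to 14.5) in [R]. At [P] and [B] its median was above that of [N] in both lines. SYVN1 of p53-/- [B] cells did not overlap that of p53-/- [N] cells, and how many other genes do the same was not counted. It was at 1.54 ± 0.48 (SE, unadjusted p = 0.00989, adjusted p = 0.143) in [B] over [N], 1.49 ± 0.48 (SE, unadjusted p = 0.0118, adjusted p = 0.33) in [P] over [N] and -1.20 ± 0.48 (SE, unadjusted p = 0.0315, adjusted p = 0.282) in [R] over [S]. SEL1L, its scaffold, was at 0.23 and -0.04 in [P] and [B] over [N], EDEM1, the mannosidase-like factor that hands over glycoproteins, at 0.39 and -0.11, and HERPUD1, the membrane adaptor of the complex, at -0.45 and 0.36.

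Of the sensors and transcription factors, ATF4 mRNA had its highest medians in budded progenies. ATF4 in p53-/- cells was at a median of 219 CPM (107.2 to 272) in [N], 217 (25.5 to 429.8) in [P], 346 (141 to 553) in [B], 417 (200.1 to 796) in [S] and 233 (129.9 to 467) in [R]. Median ATF4 in p53+/+ cells was 221 CPM (145 to 250.2) in [N], 128 (68.1 to 295) in [P], 249 (24.7 to 1238) in [B], 288 (47 to 579) in [S] and 209 (120.3 to 345) in [R]. The [S] median was the highest of the 5 in both lines, and the cells overlapped between all stages. ATF4 was at 0.88 ± 0.32 (SE, unadjusted p = 0.0215, adjusted p = 0.308) in [S] over [N], 0.76 ± 0.32 (SE, unadjusted p = 0.0399, adjusted p = 0.922) in [B] over [P] and -0.77 ± 0.32 (SE, unadjusted p = 0.0383, adjusted p = 0.301) in [R] over [S].

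XBP1 mRNA, counted without regard to splicing, had no unadjusted p under 0.05. XBP1 in p53-/- cells was at a median of 149.7 CPM (79.2 to 202) in [N], 151 (67.6 to 220.2) in [P], 163 (4.49 to 532) in [B], 88.3 (0.434 to 193) in [S] and 98.5 (39.6 to 198) in [R]. Median XBP1 in p53+/+ cells was 104.03 CPM (60.1 to 113.005) in [N], 127 (67.9 to 175) in [P], 99.4 (0 to 226) in [B], 84.4 (11.3 to 132) in [S] and 134 (63.5 to 205) in [R]. Over the stage comparisons its estimates lay between -0.62 in [S] over [B] and 0.31 in [R] over [S]. CEBPB, a partner of ATF4 on DNA, had its lowest p between the lines. CEBPB in p53-/- cells was at a median of 17.6 CPM (8.52 to 30.1) in [N], 36.4 (3.65 to 229.8) in [P], 35.6 (19 to 120.1) in [B], 20 (10.2 to 111.5) in [S] and 15.9 (3.98 to 23.4) in [R]. Median CEBPB in p53+/+ cells was 11.5 CPM (5.2 to 14.4) in [N], 15.3 (8.04 to 22.8) in [P], 12.9 (4.66 to 99.2) in [B], 11.9 (3.29 to 211) in [S] and 8.02 (3.39 to 28.9) in [R]. The median of CEBPB in p53-/- cells was above that of p53+/+ cells at every stage, and the ranges overlapped. An antisense entry, CEBPB-AS1, is also in the table, and without strand the reads of the 2 cannot be told apart. ERN1 (IRE1) had no unadjusted p under 0.05 in any comparison, nor had ATF6. EIF2AK3 (PERK) was at 0.98 ± 0.38 (SE, unadjusted p = 0.0293, adjusted p = 0.274) in [R] over [S].

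All 9 ATF4 targets had an estimate below 0 in [P] over [N], 7 of them in both lines, with a median of -0.73 beside 0.15 over all genes. The medians were -0.30 in [B] over [N] (3 of 9 above 0), -0.04 in [S] over [N], -0.01 in [R] over [N] and 0.55 in [S] over [B] (7 of 9 above 0). In [R] over [S] the median was -0.145 (4 of 9 above 0), beside -0.08 over all genes. In [S] over [N] each line alone had a median above 0, at 0.37 in p53-/- and 0.43 in p53+/+ sums. Over all genes the fitted median there was 0.15. Of the 9 targets, 3 were above 0 in both lines and 1 below 0 in both. Of the comparisons with [N], [P] over [N] alone could be made within a prefix, where the median was -1.11 in p53-/- cells (3 [P] against 2 [N]) and -1.02 in p53+/+ cells (6 [P] against 1 [N]), and that of the chaperones -0.70 and -0.27, beside 0.25 and 0.57 over genes with at least 20 counts. Over all cells the ATF4-target median of [P] over [N] was -0.08 without the p53-/- [N] sum, -0.27 without p53+/+ [P] and -1.27 without p53-/- [P]. That of [B] over [N] turned to 0.28 without p53-/- [N] and 0.04 without p53+/+ [B], and was -0.62 without p53+/+ [N] and -1.06 without p53-/- [B]. That of [S] over [B] was 0.13 without p53+/+ [B], 0.15 without p53-/- [S], 0.85 without p53+/+ [S] and 1.39 without p53-/- [B]. In [S] over [B] the median of the ATF4 targets was above 0 in 3 of 4 prefixes with both stages in p53-/- cells and in 5 of 7 in p53+/+ cells, and that of the chaperones in 4 of 4 and 4 of 7, beside 2 of 4 and 2 of 7 for all genes. In 1 of the p53-/- prefixes, with 1 cell of each stage, the median was 0.13 for the ATF4 targets and 0.21 for the chaperones, beside 2.79 for all genes.

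Of the ATF4 targets, only amino acid synthesis genes (PHGDH, PSAT1 and ASNS) had an unadjusted p under 0.05 on the lower side of [P], [B] or [S] over [N]. PHGDH, the first enzyme of serine synthesis, gave the lowest estimate among them. PHGDH in p53-/- cells was at a median of 59.4 CPM (28.1 to 121) in [N], 37.9 (2.31 to 82.6) in [P], 38.6 (4.85 to 73.1) in [B], 60.7 (34.3 to 207) in [S] and 88.6 (55 to 148) in [R]. Median PHGDH in p53+/+ cells was 98.9 CPM (44.7 to 115.7) in [N], 9.75 (3.97 to 137) in [P], 15.6 (0 to 118) in [B], 19.2 (0 to 192) in [S] and 63.3 (21.8 to 192) in [R]. In the p53+/+ line 5 of 6 [P] cells lay below all [N] cells, and the medians of [B] and [S] were low as well. PHGDH was at -1.50 ± 0.43 (SE, unadjusted p = 0.00562, adjusted p = 0.115) in [B] over [N], -1.29 ± 0.42 (SE, unadjusted p = 0.0127, adjusted p = 0.331) in [P] over [N] and 1.46 ± 0.43 (SE, unadjusted p = 0.0066, adjusted p = 1.0) in [S] over [B]. With the line as a replicate block PHGDH in [B] over [N] was at -1.62 with an edgeR adjusted p = 0.0459, and PHGDH also passed there without the block by DESeq2 (adjusted p = 0.0166) and by edgeR with no filter (adjusted p = 0.00856). It did not pass there with library size only, with thinned cells or with sums per name prefix (-1.64, adjusted p = 0.16), and the sums per prefix called it in [S] over [B] (1.57, adjusted p = 0.0434).

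PSAT1, the next enzyme of serine synthesis, was at -1.05 ± 0.27 (SE, unadjusted p = 0.00279, adjusted p = 0.0925) in [B] over [N]. PSAT1 in p53-/- cells was at a median of 307 CPM (228 to 509) in [N], 142 (16.5 to 1256) in [P], 103.03 (10.1 to 621) in [B], 127 (28.5 to 558) in [S] and 325 (208 to 617) in [R]. Median PSAT1 in p53+/+ cells was 339.5 CPM (219.8 to 421) in [N], 141 (62.2 to 767) in [P], 136 (4.73 to 307) in [B], 143 (3.33 to 1197) in [S] and 359 (229 to 738) in [R]. The [B] median was below that of [N] in both lines, and a single cell gave 65.3% of the PSAT1 counts of p53-/- [P] cells. ASNS, asparagine synthetase, had -1.13 in [P] over [N] and -1.17 ± 0.41 (SE, unadjusted p = 0.0167, adjusted p = 0.175) in [B] over [N]. ASNS in p53-/- cells was at a median of 123 CPM (106.3 to 346) in [N], 46.6 (2.73 to 544) in [P], 55.4 (3.59 to 477) in [B], 123 (31 to 729) in [S] and 218 (64.8 to 359.5) in [R]. Median ASNS in p53+/+ cells was 250 CPM (185 to 388) in [N], 55.4 (25.4 to 280.3) in [P], 55.7 (1.99 to 127) in [B], 54.3 (11.1 to 536) in [S] and 86.4 (66.1 to 365) in [R]. The estimate was larger in size in p53+/+ cells, with -0.31 for p53-/- and -2.11 for p53+/+ sums in [B] over [N]. SLC7A11, the cystine transporter, had its lowest p between the lines. SLC7A11 in p53-/- cells was at a median of 57 CPM (21.2 to 67.1) in [N], 37.2 (0.846 to 142) in [P], 34.9 (5.13 to 163) in [B], 63.2 (9.81 to 191) in [S] and 32.7 (7.27 to 110.9) in [R]. Median SLC7A11 in p53+/+ cells was 39.6 CPM (20.6 to 86.7) in [N], 4.03 (0.192 to 74.3) in [P], 6.25 (0 to 239) in [B], 23.2 (0 to 120.4) in [S] and 18 (0.292 to 72.4) in [R]. At [P] and [B] the p53+/+ median was low, apart from single cells up to 238.7 CPM. An antisense entry, SLC7A11-AS1, is also in the table, with the same limit as for CEBPB.

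The stress effectors varied widely among cells of a stage. DDIT3 (CHOP), the transcription factor tied to ER stress-induced death, was at -2.40 ± 0.85 (SE, unadjusted p = 0.0175, adjusted p = 0.234) in [R] over [S]. DDIT3 in p53-/- cells was at a median of 53.3 CPM (24.9 to 315) in [N], 54.9 (21.9 to 232) in [P], 64.5 (22.5 to 390.5) in [B], 68.8 (12.5 to 346) in [S] and 11.3 (0.462 to 50.7) in [R]. Median DDIT3 in p53+/+ cells was 26.5 CPM (19.5 to 29) in [N], 11 (2.25 to 39.9) in [P], 23.7 (3.39 to 114.03) in [B], 20.9 (0 to 1135) in [S] and 25.3 (10.7 to 41.7) in [R]. Single cells gave 41.4% of the DDIT3 counts of p53-/- [S] cells and 39.5% of those of p53+/+ [S] cells, and no [R] cell exceeded 50.7 CPM. CHAC1, which degrades glutathione, rested largely on single cells at several stages. CHAC1 in p53-/- cells was at a median of 3.68 CPM (2.08 to 61.1) in [N], 10.548 (0.254 to 30.3) in [P], 16.3 (0.441 to 222) in [B], 0.39 (0 to 119) in [S] and 5.61 (0 to 43.7) in [R]. Median CHAC1 in p53+/+ cells was 1.93 CPM (0.45 to 16.6) in [N], 1.5 (0 to 15.6) in [P], 2.27 (0 to 65.1) in [B], 1.35 (0 to 85.6) in [S] and 1.74 (0 to 16.2) in [R]. One cell gave 79.8% of the CHAC1 counts of p53-/- [B] cells and 88.2% of those of p53-/- [S] cells, and 22 cells had none. PPP1R15A (GADD34), which brings phosphatase back to eIF2 alpha, was at 1.30 ± 0.68 (SE, unadjusted p = 0.084, adjusted p = 0.426) in [S] over [N]. PPP1R15A in p53-/- cells was at a median of 44.9 CPM (17.1 to 200.2) in [N], 47.3 (0.504 to 146) in [P], 107.9 (1.8 to 175) in [B], 119.8 (48 to 765) in [S] and 115.6 (64.2 to 237) in [R]. Median PPP1R15A in p53+/+ cells was 23 CPM (1.78 to 66.2) in [N], 19.2 (10.8 to 67.8) in [P], 30.9 (0 to 214) in [B], 43.1 (1.2 to 849.8) in [S] and 91.6 (56.4 to 232) in [R]. Its p53-/- median was above the p53+/+ median at all 5 stages, and 1 p53+/+ [S] cell at 849.8 CPM stood far above the next at 95.2 CPM. DDIT4 (REDD1), an inhibitor of mTORC1 that p53 also induces, and TRIB3, a pseudokinase that restrains ATF4, had no unadjusted p under 0.05 between stages. With no filter on low counts edgeR called DDIT4 (1.56, adjusted p = 0.0165) and CHAC1 (2.02, adjusted p = 0.0233) in [B] over [P], PPP1R15A in [S] over [N] (1.34, adjusted p = 0.035), and DDIT3 in [R] over [N] (-1.68, adjusted p = 0.00868) and in [R] over [S] (-2.41, adjusted p = 1.79e-06). Of 33896 genes, that setting called 186 in [B] over [P], 524 in [S] over [N], 186 in [R] over [N] and 701 in [R] over [S]. All 34 members pass the filter, so their own counts were the same with and without it. The calls of CHAC1, DDIT3 and PPP1R15A carry the limit of single cells given above. With 1 sum left out, PPP1R15A in [S] over [N] ran from -0.12 to 2.17.

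Between the lines most members had a higher estimate in p53-/- cells. The median log2 fold change of p53-/- over p53+/+ was 0.67 for the ATF4 targets (8 of 9 above 0), 0.15 for the chaperones (11 of 15), 0.37 for the sensors and transcription factors (6 of 6) and 0.24 for ER-associated degradation (4 of 4), beside -0.01 over all genes. Over wider lists of related genes, described below, the medians ran from -0.16 to 0.04. CHAC1 was at 1.65 ± 0.31 (SE, unadjusted p = 0.000417, adjusted p = 0.0629) and above 0 at 5 of 5 stages in sums to which 1 p53-/- cell gave 79.8% of that line's counts at [B] and 88.2% at [S], and its per-cell median at [S] was lower in p53-/- (0.39 CPM) than in p53+/+ cells (1.35 CPM). PPP1R15A was at 1.13 ± 0.25 (SE, unadjusted p = 0.00146, adjusted p = 0.0951), again at 5 of 5 stages. CALR was at 0.60 ± 0.15 (SE, unadjusted p = 0.00303, adjusted p = 0.119), CEBPB at 0.86 ± 0.24 (SE, unadjusted p = 0.00546, adjusted p = 0.151) and DNAJC3 at 0.53 ± 0.15 (SE, unadjusted p = 0.0062, adjusted p = 0.157), each above 0 at 5 of 5 stages. HERPUD1 at 0.60 ± 0.21 (SE, unadjusted p = 0.0182, adjusted p = 0.238), DNAJB11 at 0.39 ± 0.15 (SE, unadjusted p = 0.0279, adjusted p = 0.282) and ATF6 at 0.39 were also above 0 at 5 of 5 stages. SLC7A11, DDIT3 and TRIB3 were at 1.07, 1.19 and 0.67, each above 0 at 4 of 5 stages. DDIT4 ran the other way, at -1.0 ± 0.61 (SE, unadjusted p = 0.132, adjusted p = 0.53): it was above 0 in [N] alone and at -3.58 in [R]. In [R] the chaperones lay on the other side, with a median of -0.38 and 5 of 15 above 0, against medians of 0.20 to 0.47 at the other 4 stages. That difference between stages was not tested, since each stage and line has 1 sum. At [R] each line has a name prefix of its own, so that line and prefix cannot be told apart in the values of [R]. With DESeq2 on the same sums 7 members were called between the lines, CHAC1 (adjusted p = 1.63e-05), PPP1R15A, SLC7A11, CALR, CEBPB, DDIT3 and DNAJC3, all higher in p53-/-, and with cells thinned to equal depth CHAC1 was called by edgeR (adjusted p = 0.0256). With library size only, or without the 4 cells of 1 prefix, edgeR called no member. Sums per name prefix called PPP1R15A (adjusted p = 0.017), SLC7A11 (adjusted p = 0.0233), CEBPB (adjusted p = 0.0272) and CALR (adjusted p = 0.0399) but not CHAC1, DDIT3 or DNAJC3, and edgeR with no filter called CHAC1 and PPP1R15A. Of all genes tested between the lines, DESeq2 called 1635 of 19894 and the sums per name prefix 1275 of 19696. Thinned cells gave 204 of 19361, and no filter gave 412 of 33896.

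**Figure D4:**
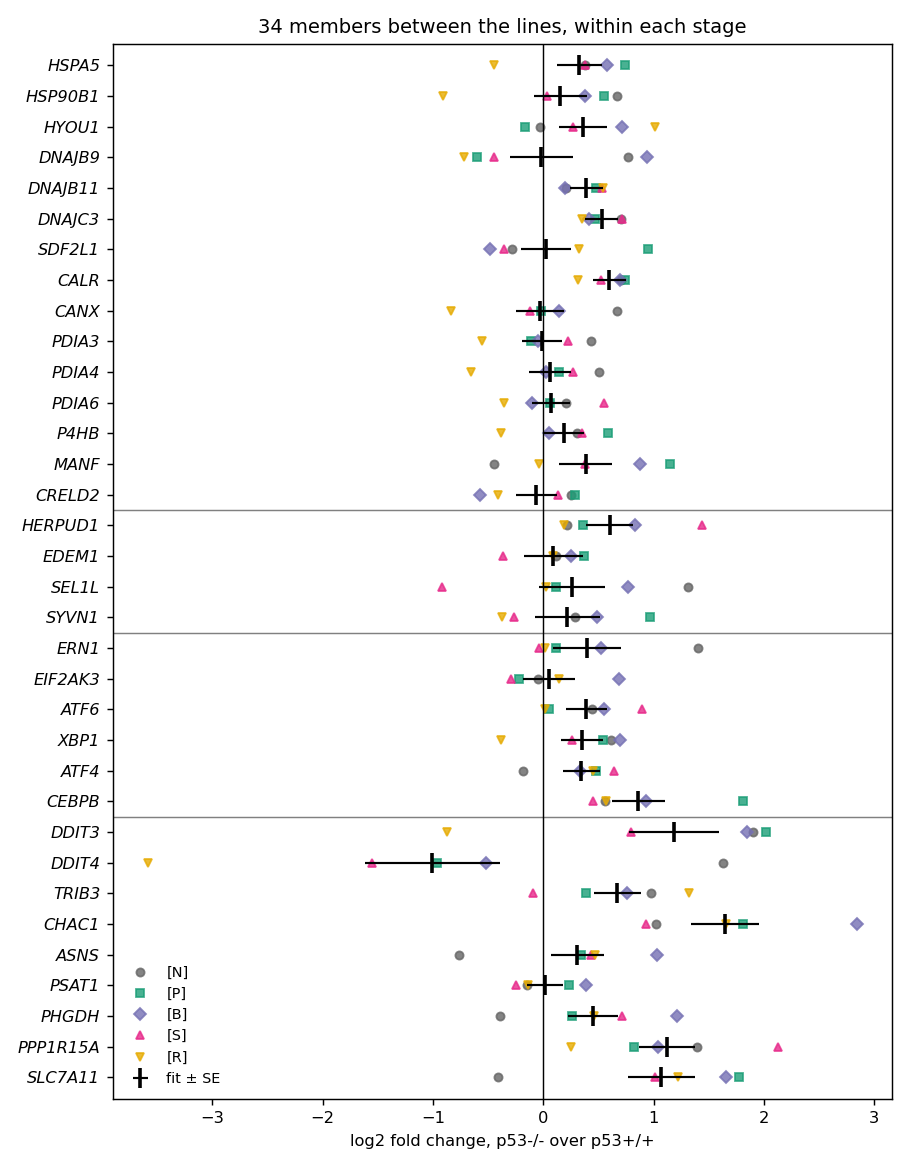
Log2 fold change of p53-/- over p53+/+ for the 34 members, as coloured symbols within each of the 5 stages (1 sum per line) and as a black bar for the edgeR fit over the stages ± its SE. CHAC1, PPP1R15A, CEBPB, CALR, DNAJC3, DNAJB11, HERPUD1 and ATF6 have all 5 symbols right of 0, and DDIT4 has 4 left of it.

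Across cells of a line, chaperones went together more than with ATF4 targets. The median Spearman correlation of CPM over the pairs of chaperones was 0.28 in 43 p53-/- cells and 0.48 in 72 p53+/+ cells, that over the pairs of ATF4 targets was 0.31 and 0.26, and that between the lists was 0.02 and 0.22. The highest pairs were HSPA5 with PDIA3 and with HSP90B1 in p53+/+ cells (0.89 each) and ASNS with PSAT1 in p53-/- cells (0.79). Correlations of ATF4 mRNA with its targets ran from 0.04 (PSAT1) to 0.57 (PPP1R15A) in p53-/- cells and from 0.16 (ASNS) to 0.58 (CHAC1) in p53+/+ cells. The 2 list levels correlated at 0.10 in p53-/- cells and 0.52 in p53+/+ cells. Cells share stage, prefix and depth, and the chaperone level correlated with total counts at 0.17 and -0.12 and with the genes detected at 0.25 in p53-/- cells.

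**Figure D5:**
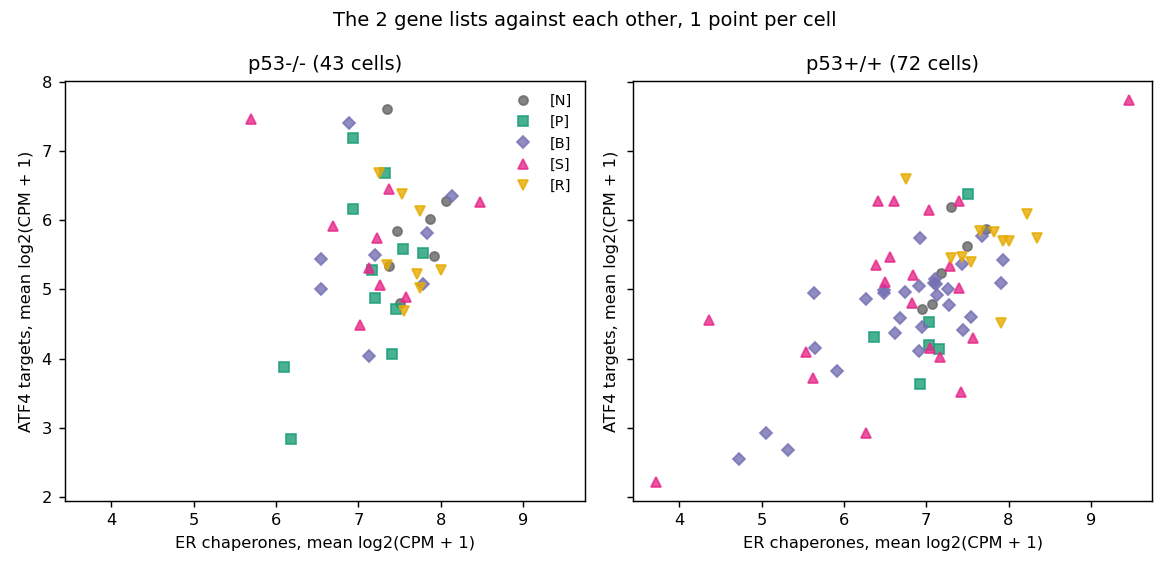
Mean log2(CPM + 1) of the ATF4 targets (vertical) against that of the chaperones and folding enzymes (horizontal), 1 point per cell, symbols by stage, p53-/- cells left and p53+/+ cells right. p53+/+ cells spread along a diagonal, with [B] and [S] cells at its low end and an [S] cell at 9.46 and 7.74 at its top, while p53-/- cells show little relation.

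Related genes outside the 34 were read in 4 wider lists. Of 29 further ER folding and translocation genes 1 was called, SPCS1, a signal peptidase subunit, which fell in p53-/- versus p53+/+ cells (log2 fold change -1.14 ± 0.16, SE, edgeR adjusted p = 0.0365). None of 14 further degradation genes (DERL3 did not pass the filter), 15 further sensor and translation control genes and 36 further ATF4 targets was called by edgeR. The ER folding and translocation genes had a median of -0.06 in [P] over [N] (13 of 29 above 0), 0.13 in [B] over [N] (18 of 29) and 0.04 in [R] over [S] (17 of 29). The further ATF4 targets had a median of -0.39 in [P] over [N], -0.33 in [B] over [N] and 0.50 in [R] over [S], with 12, 13 and 28 of 36 above 0. In [R] over [S] the 9 ATF4 targets among the members had a median of -0.145 (4 of 9 above 0). The further targets YARS and NARS charge tRNA with tyrosine and asparagine. YARS was at -1.30 in [P] over [N] (edgeR unadjusted p = 0.000902) and NARS at -1.11 in [B] over [N] (edgeR unadjusted p = 0.00198). The amino acid transporter SLC7A5, also a further target, was at 1.64 in [R] over [N] (edgeR unadjusted p = 0.000271). The sensor and translation control genes had a median of -0.65 in [B] over [N], with MBTPS2, the protease that cleaves ATF6 in the membrane, at -1.78 ± 0.39 (SE, unadjusted p = 0.00113) and EIF2S1, eIF2 alpha itself, at -1.22 ± 0.33 (SE, unadjusted p = 0.00379). Of the degradation genes VCP, the segregase that pulls substrates out of the ER, was at -1.02 ± 0.29 (SE, edgeR unadjusted p = 0.00584) in [P] over [N]. For p53-/- over p53+/+ the median was 0.04 for the further ATF4 targets (22 of 36 above 0). It was -0.04 for the ER folding and translocation genes (12 of 29) and -0.003 for the degradation genes (7 of 14). The sensor and translation control genes were at -0.16 (6 of 15), beside -0.005 over all genes.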

How the data were processed

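Single HCT116 cells were picked under a microscope and full-length cDNA was made and amplified from each. No molecular identifiers were used. Per the labels and methods, fastp trimmed the reads and HISAT2 2.0 placed them on GRCh38. The values deposited by the authors are raw counts, 1 column per cell, with no scaling. The methods name StringTie for expression levels, but whether it made these counts, the annotation and the strand of counting are not given in the sources used here. FPKM values and the authors' comparison columns were not used.

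Counts were summed per stage and line into 10 sums. Genes with a count in at least 12 cells that passed filterByExpr (minimum count 10) entered edgeR 4.0.16 (quasi-likelihood test with robust fit, TMM scaling, all sums, no block, R 4.3.3, limma 3.58.1), with p-values adjusted by Benjamini-Hochberg over all genes tested and a threshold of 0.05. The lines were compared with the stage as block. The p53-/- and p53+/+ sums pair across stages, as the labels give the same line at each. The main stage fits did not use this pairing, which the alternative with the line as replicate block does. Deviations of same-line sums from their stage means correlated at 0.074 to 0.216 over 10 pairs of stages. Levels are CPM of each cell's own total, and list levels the mean of log2(CPM + 1). Alternatives were the line as replicate block, DESeq2 1.42.0, scaling by library size alone, no filter, cells thinned to 15435056 counts (12 shallower cells left out), leaving out 4 cells of 1 name prefix that the study's own comparisons did not use, sums per name prefix (40 sums), and each sum left out. Each script that tests across genes was tested on simulated data. Tables were handled in Python 3.11.15 (pandas 2.3.3, numpy 2.4.6, matplotlib 3.10.9).

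The members and all lists were chosen with earlier results of these data known. Values by stage and line are given for HSPA5, XBP1, ATF4, DDIT3, ASNS and the members of smallest p, up to 12 with an unadjusted p under 0.05, and up to 4 genes are eligible to be named from each wider list. Precision is limited by the number of sums, 2 per stage, and by depth per cell, which the opening gives. 1 check of the line labels is not reported here.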

Additional observations from a re-analysis of the deposited data

Results flagged for a closer look

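Groups of 4 to 10 cells of a stage and line were screened for a cell far from the rest. The measures were the 16 members given with values by stage and the levels of the 4 role groups. Each measure in each group was 1 screen, 120 in all. Chance flags about 1 in 20 screens, and 8 were flagged. Values are log2(CPM + 1), each set beside the nearest cell of its group. In p53+/+ [N] cells XBP1 had a lowest cell at 5.93 (next 6.53), DNAJC3 a lowest cell at 3.42 (next 5.52), and CHAC1 a highest cell at 4.14 (next 1.75). In p53+/+ [P] cells CHAC1 had a highest cell at 4.05 (next 1.36), and the level of the 9 ATF4 targets a highest cell at 6.37 (next 4.52). In p53-/- [B] cells ATF4 had a lowest cell at 7.15 (next 8.27), and PPP1R15A a lowest cell at 1.48 (next 6.08). CEBPB had a lowest cell at 2.32 (next 3.84) in p53-/- [R] cells.

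Of the chaperone and ATF4-target medians, 3 lay on opposite sides of 0 in the lines. In [R] over [N] the chaperone median was -0.39 in p53-/- and 0.42 in p53+/+, and the ATF4-target median 0.048 in p53-/- and -0.14 in p53+/+. In [B] over [P] the ATF4-target median was 0.24 in p53-/- and -0.029 in p53+/+. These differences between the lines were not tested, as each stage and line has 1 sum. In [R] the lines also differ in name prefix.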

How the results depend on the processing

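Genes called, in the order [P], [B], [S] and [R] over [N], [B] over [P], [S] over [B], [R] over [S], and p53-/- over p53+/+, numbered 799, 2153, 960, 401, 128, 51, 1393 and 1635 with DESeq2, and 407, 1276, 524, 186, 186, 99, 701 and 412 without the filter, against 4, 131, 14, 0, 0, 0, 4 and 41. With the line as replicate block they numbered 677 in [B] over [N], 31 in [S] over [N], 6 in [B] over [P] and 76 in [R] over [S], and the block changed no member's call but that of PHGDH in [B] over [N]. With library size only they numbered 72 in [B] over [N], 0 in [R] over [S] and 27 for the lines. With thinned cells they numbered 2, 77 and 8 in [P], [B] and [S] over [N], 1 in [B] over [P], 1 in [R] over [S] and 204 for the lines. Sums per prefix gave 0 in [P] over [N], 0 in [S] over [N], 153 in [S] over [B], 0 in [R] over [S] and 1275 for the lines. Without the stage as block 1 gene was called between the lines.

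The chaperone median of [P] over [N] was -0.42 with library size only, -0.50 without the filter, -0.39 with thinned cells and -0.36 with sums per prefix, and that of [B] over [N] was -0.40 with sums per prefix. In [S] over [N] it was -0.079 without the filter, -0.30 with thinned cells and -0.18 without the 4 cells. In [B] over [P] it was -0.027 with library size only, -0.014 without the filter, 0.13 with thinned cells, 0.027 without the 4 cells and 0.022 with sums per prefix. In [S] over [B] it was 0.19 with DESeq2, 0.075 with library size only, 0.088 with thinned cells, 0.17 without the 4 cells and 0.16 with sums per prefix. The ATF4-target median of [B] over [N] was -0.27 with the line as replicate block, -0.17 with library size only, -0.25 without the filter and -0.39 with thinned cells. In [S] over [N] it was -0.15 with thinned cells, 0.044 without the 4 cells and 0.001 with sums per prefix, and in [R] over [N] it was 0.15 with library size only. That scaling moved the median of all genes from 0.15 to 0.30 in [P] over [N] and from -0.08 to 0.10 in [R] over [S]. The cause of these shifts was not tested.

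With 1 sum of the stages compared left out, where the lone sum of a stage is assumed to vary like the others, genes called ranged from 0 to 0 in [P] over [N] and [R] over [S], 0 to 14 in [B] over [N], 0 to 1 in [S] over [N] and 6 to 73 between the lines. Leaving out a sum of another stage gave 36 to 247 genes in [B] over [N], the most without an [S] sum (237 without p53+/+ and 247 without p53-/-). In the order given at the start, the chaperone median ranged from -0.77 to -0.33, -0.66 to -0.36, -0.34 to -0.063, -0.26 to 0.145, -0.16 to 0.16, -0.11 to 0.36, 0.26 to 0.57 and 0.067 to 0.24, and the ATF4-target median from -1.27 to -0.083, -1.06 to 0.28, -0.14 to 0.38, -0.63 to 0.045, -0.34 to 1.04, 0.13 to 1.39, -0.52 to 0.24 and 0.51 to 0.86. Over the 16 members given with values by stage, 33 estimates passed the adjusted p of 0.05 under another setting with all sums, and 863 did not. With 1 sum left out, the direction of some estimates turned. CHAC1 in [B] over [N] ran from -0.68 to 2.17, DDIT3 there from -1.06 to 1.38, and PPP1R15A in [S] over [N] from -0.12 to 2.17. Others kept their direction, such as HSPA5 in [P] over [N] (-1.67 to -0.97) and PHGDH in [B] over [N] (-2.23 to -1.02).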
